A study of Mus musculus with 20 samples.

Results

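The knockout and wild-type forelimbs made up 10 of the 20 arrays of the series, chosen by the genotype and the limb that each sample's description gives. The wild-type group held 5 forelimbs of wild-type 129Sv mouse embryos at embryonic day 13.5, and the knockout group held 5 forelimbs of Lmx1b -/- 129Sv embryos of the same day. Both groups held 3 right limbs (replicates 1 to 3) and 2 left limbs (replicates 4 and 5), dissected whole, and neither carried a transgene or Cre driver that the labels name. The other 10 arrays held hindlimbs of both genotypes and are used only to show where the forelimb differed. The question, from the series title, is which genes of the developing limb the transcription factor controls. Titles call the arrays biological replicates, but no label says that each limb came from its own embryo, so the p-values below measure the spread between these limbs.

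Lmx1b encodes a LIM-homeodomain transcription factor that gives the dorsal side of the limb its identity. Wnt7a, made in the dorsal ectoderm, switches Lmx1b on in the mesenchyme beneath it, while En1 keeps Wnt7a out of the ventral ectoderm. Mouse limbs without Lmx1b form ventral structures on both faces of their distal part, and loss of 1 human copy causes nail-patella syndrome, with abnormal nails, kneecaps and elbows. Tendon, muscle connective tissue, skeleton and skin all take their dorsal or ventral form from this mesenchyme.

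The arrays differed in more than genotype. Median intensity was 28.6 to 31.8 per forelimb array. Tbx5, the forelimb identity factor, averaged 8.50 on the log2 scale in wild-type and 8.75 in knockout forelimbs against 4.73 and 4.68 in the hindlimbs, and Pitx1, its hindlimb counterpart, averaged 5.40 and 5.52 against 8.49 and 8.43, so every group matched its limb label. Y-linked transcripts and Xist marked all 5 wild-type forelimbs as male, knockout replicates 1 and 5 as male and knockout replicates 2, 3 and 4 as female. Skeletal muscle genes also moved with genotype, as described with that tissue below. On a principal component analysis of all genes, knockout replicate 5 stood apart on the second component, at -25.8 where the other 9 arrays lay between -6.11 and 12.6, and wild-type replicate 1 lay among the knockouts on the first, at -2.91 where the other wild types lay between 5.87 and 18.1.

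Lmx1b itself was lower in every knockout forelimb. Its log2 intensity was 6.34, 6.48, 6.14, 6.30 and 6.26 in the wild-type forelimbs and 5.6, 5.73, 5.72, 5.82 and 5.75 in the knockouts. The groups did not overlap, and the means differed by 1.49-fold, a log2 change of -0.58 ± 0.074 (SE, n = 5 and 5; limma, Benjamini-Hochberg adjusted p = 0.00164). The probe set reports on the transcript as a whole, and the labels do not say which of its probes lie in the deleted part. Of the other genes of the dorsoventral pathway, Wnt7a did not pass the threshold (log2 change 0.07 ± 0.10 SE) and neither did En1 (-0.21 ± 0.096 SE). Ldb2, a cofactor that bridges LIM-homeodomain proteins, fell from 8.58 ± 0.081 to 8.09 ± 0.142 (SD, n = 5 each; adjusted p = 0.00701). Ldb2 did not pass in male arrays alone (limma adjusted p = 0.149). Lhx2 and Lhx9, LIM-homeodomain genes of the distal limb, stood higher by 0.50 ± 0.109 and 0.70 ± 0.172 (log2, SE), with adjusted p of 0.0574 and 0.0939, short of the threshold.

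Far more genes were lower than higher in the knockout forelimbs. Of 19936 genes, 165 passed an adjusted p of 0.05 (0.828%), 150 of them lower in the knockout forelimbs (0.752%) and 15 higher (0.0752%). In 155 of the 165 no knockout array overlapped the wild-type range, and in the other 10 genes 4 of 5 knockouts lay beyond it. Over all genes, all 5 knockouts lay below all 5 wild types in 344 (1.73%) and above them in 162 (0.813%). Changes were mostly moderate: 74 of the 165 reached 1.5-fold and 19 fell at least 2-fold, and 55 of the 165 had a mean log2 level under 5, where the medians of the forelimb arrays were 4.84 to 4.99. The median log2 change of all genes was 0.0013.

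The length of that list depended on single arrays, and so did the calls of some of its largest falls. Of the 19 genes that fell at least 2-fold, Ibsp, Mdga2 and Tnmd lost their calls without 1 or another array, as given with each gene, and the others kept theirs. Calls described below as kept or lost refer to leaving out 1 array, unless male arrays or a covariate are named. Without wild-type replicate 2, 3, 4 or 5 the list held 101, 62, 69 and 88 genes, and without knockout replicate 2, 4 or 5 it held 101, 69 and 107. In the 7 male arrays alone, 5 wild type against 2 knockout, 35 genes passed, and 28 passed once the level of Y-linked genes entered the model. All 165 changes kept their sign in both. For the 155 without overlap, male arrays could not have reversed it, since all wild types are male. The Y-linked fit gave changes close to those of the male arrays, such as -3.01 for Kera and -1.68 for Apod. The kept signs are therefore no test of the part of sex. In the male arrays Kera changed by -3.02, Apod by -1.68, Cbln2 by -1.52, Grem1 by -1.51 and Emx2 by -1.44 on the log2 scale. Of the 165 calls, 34 passed in male arrays, so a call given below without a male result need not hold there. The X chromosome held 10 of the 165 genes (6.06%, against 3.73% of all genes tested), among them Tnmd, Atp1b4, Dmd, Dcx and Alas2, whose changes in the male arrays were -0.74, -0.94, -0.40, -0.43 and -0.96, none past the threshold. With the mean of the muscle list as a covariate 14 passed, and again all 165 kept their sign. Of the 165, 13 passed in every alternative setting in which they were tested, up to 25: Lmx1b, Kera, Apod, Thbs4, Cbln2, Emx2, Grem1, Alx1, Slitrk1, Kcnab1, Slc6a15, Cdh8 and the provisionally named E330013P04Rik. Kcnab1, Slc6a15, Cdh8 and E330013P04Rik were named after their values were seen.

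**Figure D1:**
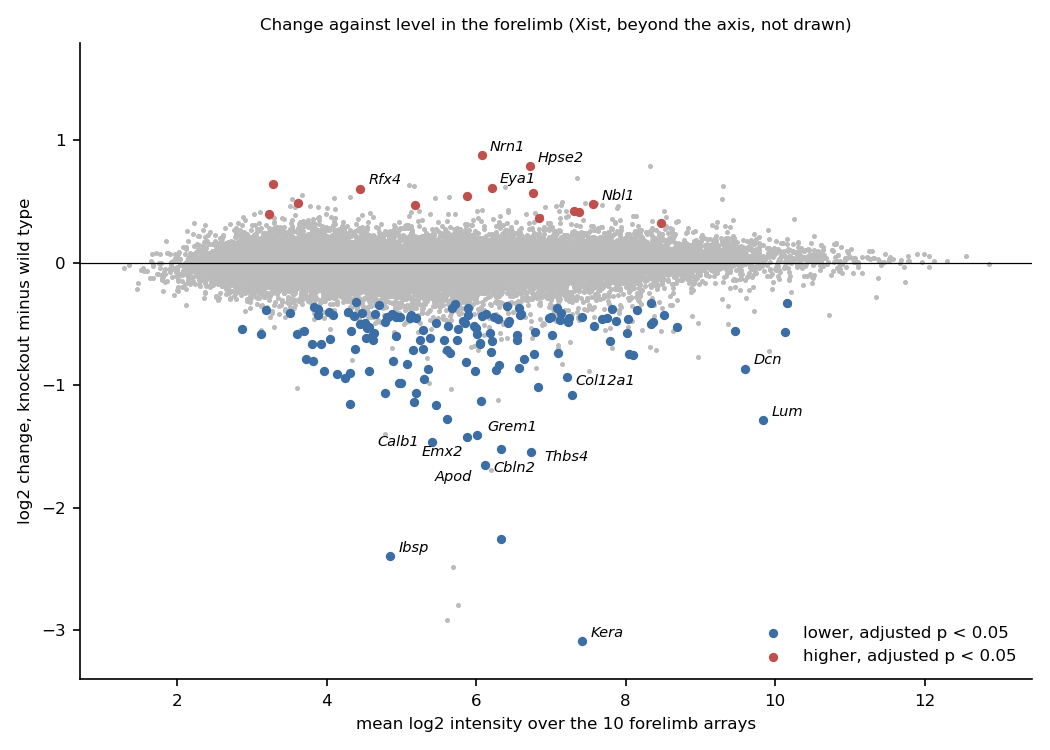
Log2 change in knockout forelimbs (vertical axis) against the mean log2 intensity over the 10 forelimb arrays (horizontal axis) for each gene tested, with the 150 lowered genes in blue and the 15 raised genes in red; Xist lies beyond the axis. Kera lies lowest at -3.09, and the called genes spread over most of the range of levels, with more and larger changes below 0 than above it.

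LIM-homeodomain proteins bind AT-rich DNA with the core TAATTA, so the 250 bases before the annotated start were searched for those letters, which read the same on both strands. RefSeq windows on GRCm38.p6 were matched for 15614 of the tested genes, and 752 of them (4.82%) held the core. Among the lowered genes 110 had a window and 5 of these held it (4.55%): Dcx, Pde7b, Pdzrn4, Slc17a6 and Tnmd, of which Pde7b, Pdzrn4 and Slc17a6 are named here for the motif alone. Among the 15 raised genes 10 had a window and 1, Olfr703, held it. The lowered genes thus held the core in these windows about as often as all genes did. The windows of 3 chosen lowered genes are printed as examples, not as a sample of that share, with any core in capitals. Kera, on the plus strand at chr10:97606955-97607204, had none, Emx2, on the plus strand at chr19:59458440-59458689, had none, and Tnmd, on the plus strand at chrX:133850758-133851007, had 1 that begins 238 bases before the start.
Kera: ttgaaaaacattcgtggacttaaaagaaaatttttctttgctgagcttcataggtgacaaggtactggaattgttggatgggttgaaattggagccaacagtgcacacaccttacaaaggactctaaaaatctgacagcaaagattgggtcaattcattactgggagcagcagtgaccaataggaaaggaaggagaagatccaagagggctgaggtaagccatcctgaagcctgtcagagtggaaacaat
Emx2: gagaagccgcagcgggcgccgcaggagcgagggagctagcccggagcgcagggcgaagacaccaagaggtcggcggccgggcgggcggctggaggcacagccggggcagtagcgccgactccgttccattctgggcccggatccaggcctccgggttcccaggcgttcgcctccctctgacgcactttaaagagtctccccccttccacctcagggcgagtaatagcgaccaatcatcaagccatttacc
Tnmd: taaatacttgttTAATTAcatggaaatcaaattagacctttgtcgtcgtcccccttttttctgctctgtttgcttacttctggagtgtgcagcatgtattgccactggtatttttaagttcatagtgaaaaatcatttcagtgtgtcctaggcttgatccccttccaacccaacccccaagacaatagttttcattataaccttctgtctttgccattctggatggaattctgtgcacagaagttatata

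Kera showed the largest change of all genes tested other than Xist. Keratocan, its product, is a small leucine-rich proteoglycan, a family of matrix proteins that bind collagen and space its fibrils. Kera stood at 8.80, 8.96, 9.11, 9.04 and 8.94 in the wild-type forelimbs and at 6.03, 5.56, 6.34, 5.59 and 5.87 in the knockouts (log2). Every knockout lay more than 2 units below every wild type, an 8.52-fold difference (-3.09 ± 0.130 SE, adjusted p = 2.8e-08). Lum, which encodes lumican, a proteoglycan of the same family, stood at 10.27, 10.58, 10.54, 10.46 and 10.56 in the wild types and at 9.26, 9.04, 9.53, 8.70 and 9.46 in the knockouts. Those groups did not overlap either, and Lum fell 2.44-fold (-1.29 ± 0.134 SE, adjusted p = 0.000303).

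Both lie beside Dcn, which encodes decorin, and Epyc, which encodes epiphycan, on chromosome 10. Dcn fell 1.82-fold, from 10.03 ± 0.263 to 9.17 ± 0.431 (SD, n = 5 each; adjusted p = 0.0417), with 4 of 5 knockouts below all wild types. Its call was kept only without wild-type replicate 1 or knockout replicate 3, and reached an adjusted p of 0.129 when one of the other 8 arrays was left out. Epyc averaged 5.31 ± 0.707 in wild types and 4.82 ± 0.911 in knockouts and did not pass (adjusted p = 0.701). The genes outside the cluster, Btg1 before Dcn and Ccer1 and Atp2b1 after Epyc, did not pass, at log2 changes of -0.01, -0.06 and -0.35. Of the 16 measured small leucine-rich proteoglycans, Kera, Lum and Dcn were called lower and none was called higher. In this family 13 members lay below 0, and the median log2 change was -0.17. Over all genes tested, 0.752% were called lower, 0.0752% were called higher and 49.6% lay below 0.

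**Figure D2:**
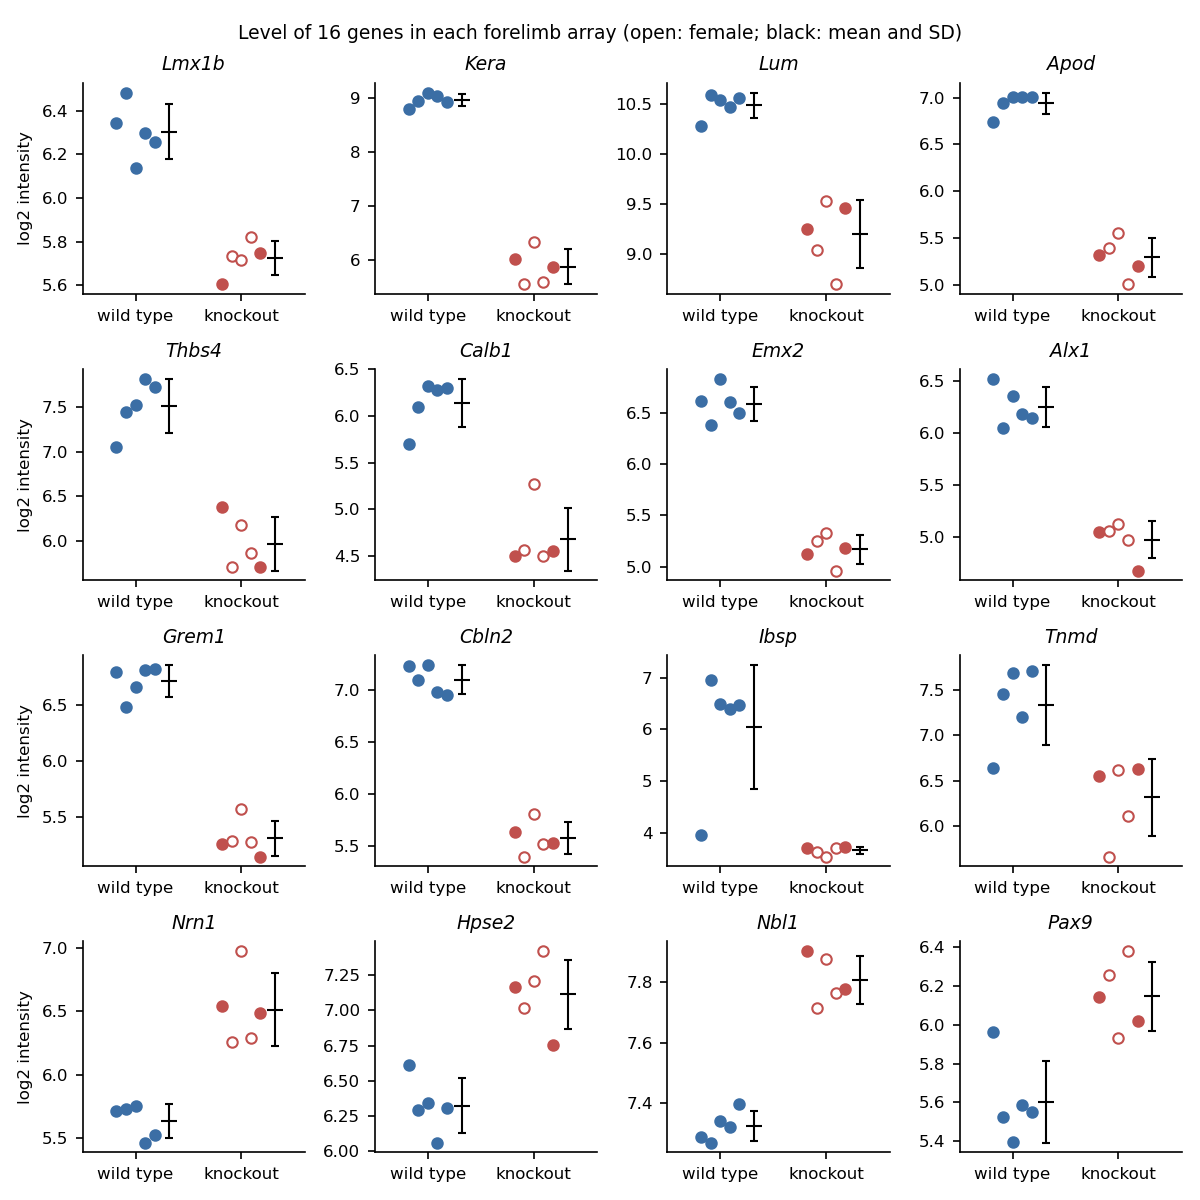
Log2 intensity of 16 genes in each of the 5 wild-type and 5 knockout forelimb arrays, ordered by replicate number from left to right within each group, with black marks for the group mean and SD and open points for female limbs. Kera, Apod, Emx2, Grem1 and Cbln2 separate the genotypes widely, Ibsp does so except for wild-type replicate 1 at 3.94, and the Tnmd groups nearly meet, at 6.64 and 6.63.

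Genes of tendon and fibrous matrix leaned lower. The gene lists of this report were chosen with earlier results of these data known, so their counts and medians are not tests. Of 20 measured tendon and ligament genes, 7 fell and none rose, with a median log2 change of -0.32 and 18 members below 0. For this and each list below, the shares over all genes tested were 49.6% below 0, 0.752% called lower and 0.0752% called higher. Thbs4, which encodes a thrombospondin of tendon and muscle attachments, stood at 7.05, 7.44, 7.53, 7.82 and 7.73 in the wild types and at 6.38, 5.70, 6.17, 5.86 and 5.71 in the knockouts. The groups did not overlap, and Thbs4 fell 2.92-fold (-1.55 ± 0.155 SE, adjusted p = 0.000219). Tnmd, which encodes tenomodulin, a membrane protein of mature tendon cells, stood at 6.64, 7.45, 7.68, 7.2 and 7.70 against 6.55, 5.66, 6.62, 6.11 and 6.63. Wild-type replicate 1 lay just above the highest knockout, and the 2.02-fold fall passed at an adjusted p of 0.0436. That call was lost when any array other than wild-type replicate 1 or knockout replicate 3 was left out (adjusted p up to 0.138). The early tendon regulators did not follow: Scx changed by -0.09 ± 0.107 and Mkx by -0.09 ± 0.088 (log2, SE), and neither passed.

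Among collagens, 4 of 42 measured chains fell, none rose, and 39 lay below 0, with a median of -0.19. Col12a1, a fibril-associated collagen of tendon and fascia, fell 1.91-fold from 7.68 ± 0.255 to 6.75 ± 0.196 (SD; adjusted p = 0.00188) and kept its call without any single array. It did not pass in male arrays alone (limma adjusted p = 0.0578). Col3a1 and Col5a2, fibrillar chains whose genes lie next to each other, fell by 0.56 ± 0.102 and 0.57 ± 0.107 on the log2 scale (SE; adjusted p = 0.0199 and 0.0236). Col11a1, a fibrillar chain of cartilage, fell by 0.44 ± 0.092 (adjusted p = 0.0402). The call of Col3a1 was lost without wild-type replicate 3, 4 or 5 or knockout replicate 4 or 5 (adjusted p up to 0.0695). The call of Col5a2 was lost without any of these or wild-type replicate 2 or knockout replicate 2 (up to 0.0760), and that of Col11a1 without any array but wild-type replicate 5 or knockout replicate 3 (up to 0.121).

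Elastic fibre and matrix glycoprotein genes showed the same lean, with 4 of 37 measured members lower, none higher and a median of -0.21. Thbs4 and Tnc among them were also in the tendon list, as were Kera, Lum and Dcn of the proteoglycans and Col12a1 of the collagens. The calls of these lists are therefore not separate results. Efemp1, which encodes the fibulin-type protein EFEMP1, fell from 7.07 ± 0.141 to 6.5 ± 0.07 (SD; adjusted p = 0.00221). Efemp1 did not pass in male arrays alone (limma adjusted p = 0.107). Thbs2, a thrombospondin of connective tissue, fell by 0.74 ± 0.133 (log2, SE; adjusted p = 0.0197), and Tnc, which encodes tenascin C, by 0.41 ± 0.076 (adjusted p = 0.0227). Thbs2 lost its call without wild-type replicate 3, 4 or 5 or knockout replicate 2 or 4 (adjusted p up to 0.0650), and Tnc without wild-type replicate 2, 3 or 4 or knockout replicate 4 or 5 (up to 0.0753). The limbs were measured whole, so fewer cells of a type and less RNA per cell cannot be told apart, here or in any list below.

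Bone-forming genes leaned lower too. Of 16 measured osteoblast and perichondrium genes 5 fell and none rose (median -0.22), and the hypertrophic growth plate list had 4 lowered and no raised genes among 12 (median -0.24), with Ibsp, Sp7 and Alpl in both lists. Ibsp, which encodes bone sialoprotein, a mineral-binding matrix protein, stood at 3.94, 6.96, 6.49, 6.40 and 6.47 in the wild types and at 3.69, 3.63, 3.53, 3.70 and 3.72 in the knockouts. Wild-type replicate 1 thus lay with the knockouts and the other 4 wild types far above them. The log2 change was -2.40 ± 0.413 (SE, adjusted p = 0.0156). It was -2.93 without wild-type replicate 1 (adjusted p = 1.7e-08), and the call was lost without wild-type replicate 3, 4 or 5 (up to 0.0553).

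Sp7, which encodes osterix, the transcription factor that commits cells to bone, fell from 5.42 ± 0.099 to 4.97 ± 0.046 (SD; adjusted p = 0.00431). Smpd3, a sphingomyelinase needed for mineralisation, fell from 4.94 ± 0.204 to 4.31 ± 0.10 (adjusted p = 0.00560), and both kept their calls without any single array. Neither Sp7 nor Smpd3 passed in male arrays alone (limma adjusted p = 0.135 and 0.235). Alpl, the tissue-nonspecific alkaline phosphatase, fell by 0.55 ± 0.112 (log2, SE; adjusted p = 0.0352), Ostn, which encodes osteocrin, by 0.88 ± 0.157 (0.0184), and Panx3, a pannexin channel of hypertrophic cartilage and bone, by 0.98 ± 0.178 (0.0199). Alpl kept its call only without wild-type replicate 1 or knockout replicate 3 (otherwise up to 0.116). Ostn lost its call without wild-type replicate 3, 4 or 5 or knockout replicate 4 (up to 0.0624), and Panx3 without wild-type replicate 2, 3 or 4 or knockout replicate 4 (up to 0.0646). Ihh, the growth plate signal of prehypertrophic cells, and Col10a1, the collagen of hypertrophic cartilage, did not pass, at -0.15 ± 0.107 and -0.25 ± 0.084.

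Cartilage itself gave 1 lowered gene, Col11a1, of 25 measured, none raised and a median of -0.19. Sox9, the chondrocyte regulator, ranged from 7.04 to 8.45 in wild types and from 7.65 to 8.56 in knockouts (change 0.14 ± 0.234 SE, adjusted p = 0.869). Col2a1 changed by -0.30 ± 0.135 and Acan by -0.48 ± 0.194, neither past the threshold. The cartilage mean over the list spread more within the wild types, from 5.95 in replicate 5 to 6.89 in replicate 2, than between the genotypes. Joint interzone genes gave 1 call of 15, Dcx, and Gdf5, the interzone's growth factor, did not pass at 0.00 ± 0.240 (SE; adjusted p = 0.996).

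**Figure D3:**
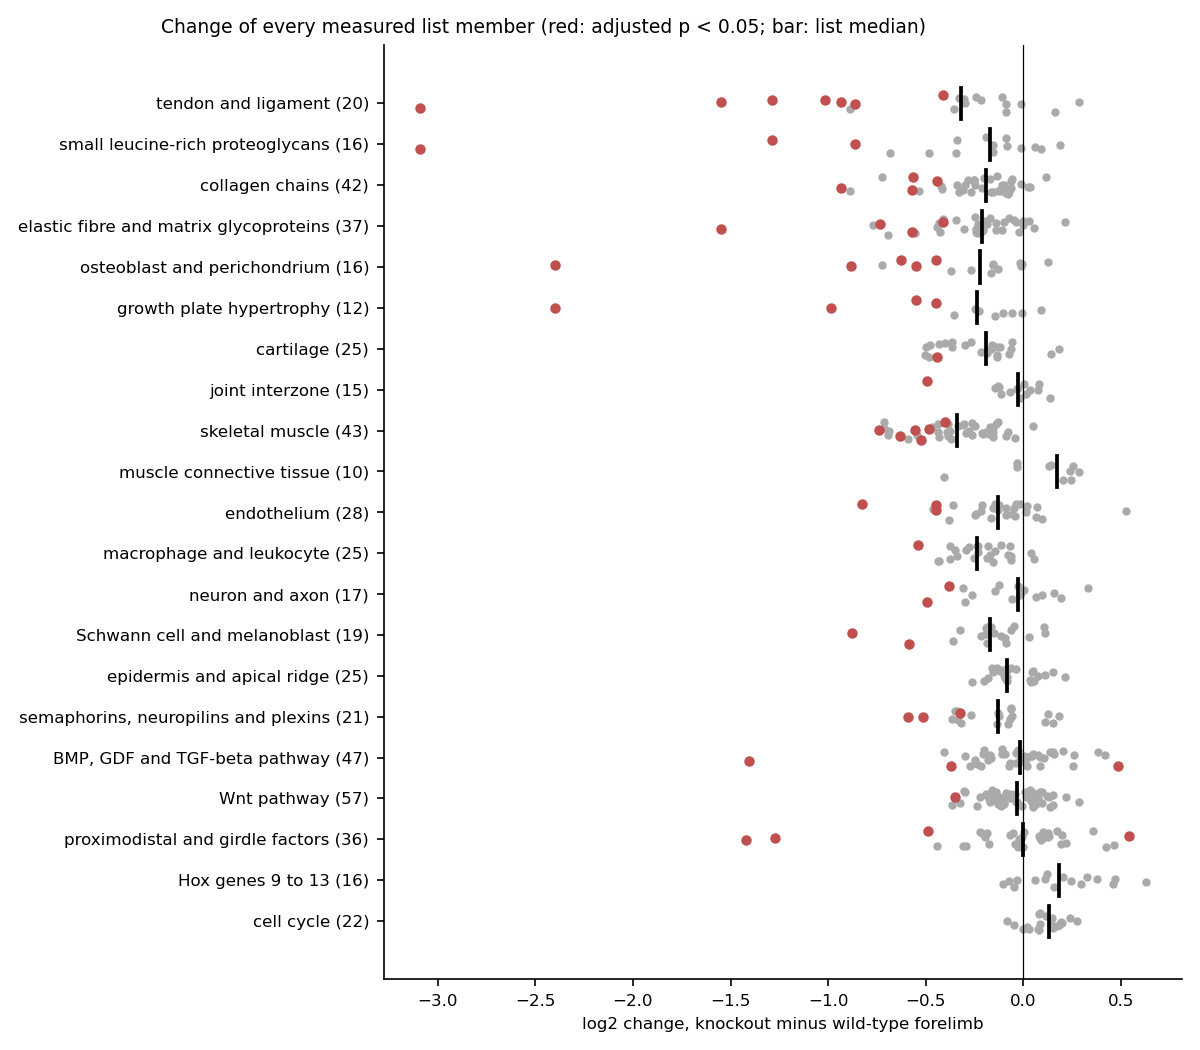
Log2 change in knockout forelimbs (horizontal axis) for every measured member of 21 gene lists, with list sizes in brackets, called genes in red and a black bar at each list's median. Medians lie left of 0 for tendon (-0.32), skeletal muscle (-0.34), osteoblast (-0.22) and collagen genes (-0.19), and right of it for Hox genes (0.18), muscle connective tissue (0.17) and cell cycle genes (0.13), of which none passed.

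Skeletal muscle genes leaned down in a body. Of 43 measured members 42 lay below 0, with a median of -0.34, and 6 passed, all lower: Myf6, a myogenic regulator, Actn2, Acta1, Tnnt2 and Tnnt3, which encode sarcomere proteins, and Dmd, which encodes dystrophin. Actn2 fell most, from 8.42 ± 0.253 to 7.68 ± 0.246 (SD, n = 5 each; adjusted p = 0.0184), and the other 5 fell by 0.40 to 0.63 on the log2 scale. The determination genes Myod1 and Myog did not pass, at -0.04 ± 0.114 and -0.13 ± 0.091 (SE), nor did Pax3 at 0.05 ± 0.065. The mean over the muscle list was 6.85, 6.80, 7.09, 7.17 and 7.22 in the wild types and 6.82, 6.65, 6.81, 6.48 and 6.61 in the knockouts. Wild-type replicates 1 and 2 therefore lay beside the highest knockouts. The summed intensity of the list ran from 9710 to 13200 in wild types and from 8180 to 10300 in knockouts.

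None of the 6 muscle calls held in every fit that left out 1 array. Wild-type replicates 3 and 4 were needed for all 6, and adjusted p reached 0.0644 for Myf6, 0.0624 for Actn2, 0.0835 for Acta1, 0.128 for Tnnt2, 0.0724 for Tnnt3 and 0.104 for Dmd. Wild-type replicate 5 was needed for all but Myf6, wild-type replicate 2 for Acta1, Tnnt2 and Tnnt3, knockout replicate 4 for all but Tnnt2, knockout replicate 5 for Acta1, Actn2, Tnnt2 and Dmd, knockout replicate 2 for Acta1, Tnnt2, Tnnt3 and Dmd, and knockout replicate 1 for Tnnt2 and Dmd. Muscle connective tissue, the fibroblasts that pattern muscle, moved the other way without a call: 7 of 10 members lay above 0 and the median was 0.17.

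**Figure D4:**
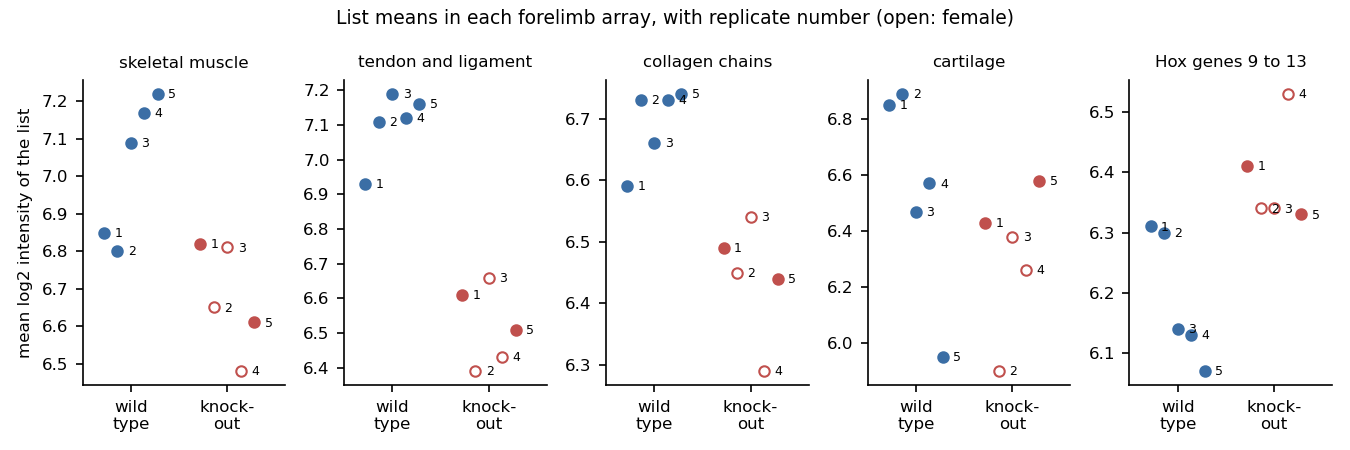
Mean log2 intensity over the members of 5 gene lists in each forelimb array, with the replicate number beside each point and open points for female limbs. The tendon and collagen means separate the genotypes (tendon 6.93 to 7.19 in wild types, 6.39 to 6.66 in knockouts), while the muscle means of wild-type replicates 1 and 2 lie beside the knockouts and the cartilage means overlap.

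Patterning genes changed one by one rather than as a list. Of 36 measured proximodistal and girdle factors 3 fell and 1 rose, with a median of -0.0045. Emx2, a homeobox gene needed for the shoulder blade, stood at 6.62, 6.38, 6.84, 6.61 and 6.5 in the wild types and at 5.12, 5.25, 5.32, 4.96 and 5.18 in the knockouts. The groups did not overlap, and Emx2 fell 2.68-fold (-1.42 ± 0.092 SE, adjusted p = 1.61e-06). Its neighbours on chromosome 19 fell as well, Rab11fip2 with a log2 change of -0.49 ± 0.074 (SE; adjusted p = 0.00601) and the provisional gene E330013P04Rik with -2.26 ± 0.164 (6.74e-06). Rab11fip2 did not pass in male arrays alone (limma adjusted p = 0.149). Pdzd8 on one side and Fam204a on the other did not pass, at -0.03 and 0.10. Rab11fip2, E330013P04Rik, Pdzd8 and Fam204a are named for their place beside Emx2, with their values already known.

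Alx1, a homeobox gene of craniofacial and limb mesenchyme, stood at 6.52, 6.04, 6.36, 6.18 and 6.14 against 5.05, 5.05, 5.12, 4.97 and 4.68. It fell 2.42-fold (-1.27 ± 0.103 SE, adjusted p = 1.97e-05). Pax1, a paired-box gene of the shoulder girdle, fell by 0.49 ± 0.084 (adjusted p = 0.0156) and lost its call without wild-type replicate 3 or 4 or knockout replicate 4 (up to 0.0572). Its close relative Pax9 went the opposite way, at 5.96, 5.52, 5.40, 5.58 and 5.55 in the wild types and 6.14, 6.26, 5.93, 6.38 and 6.02 in the knockouts. Wild-type replicate 1 reached into the knockout range, and the rise of 0.54 ± 0.109 (adjusted p = 0.0332) kept its call only without wild-type replicate 1 or knockout replicate 3 (otherwise up to 0.111). Foxf2, a forkhead factor of mesenchyme, fell 2.24-fold from 6.05 ± 0.242 to 4.88 ± 0.30 (SD; adjusted p = 0.00102).

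Distal limb genes stood higher without passing. None of 16 measured Hox genes of groups 9 to 13 passed, 12 lay above 0, and the median was 0.18. Hoxd13 averaged 8.99 ± 0.430 in wild types and 9.62 ± 0.202 in knockouts (SD; adjusted p = 0.136), and Hoxa13 averaged 6.70 ± 0.252 and 7.16 ± 0.262 (0.175). Msx1, a homeobox gene of the progress zone, stood higher by 0.46 ± 0.133 (SE; 0.162), and Aldh1a2, the enzyme that makes retinoic acid, by 0.79 ± 0.270 (0.262), neither past the threshold. Meis1 and Meis2, markers of the proximal limb, changed by -0.03 ± 0.178 and 0.00 ± 0.184. The 5 wild types spread widely in this set, with replicate 5 the lowest for Hoxd13 at 8.37 and replicate 2 the highest at 9.47.

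Signalling genes gave few calls. In the BMP, GDF and TGF-beta list 2 of 47 measured members fell and 1 rose. Grem1, which encodes gremlin, a secreted BMP antagonist that keeps the limb's signalling loop running, stood at 6.80, 6.49, 6.66, 6.81 and 6.82 in the wild types and at 5.26, 5.29, 5.57, 5.28 and 5.15 in the knockouts. The groups lay far apart, and Grem1 fell 2.65-fold (-1.40 ± 0.090 SE, adjusted p = 1.61e-06). Bmp3, a BMP family member that restrains bone formation, fell from 5.86 ± 0.035 to 5.49 ± 0.073 (SD; adjusted p = 0.0106). Bmp3 did not pass in male arrays alone (limma adjusted p = 0.145). Nbl1, which encodes another secreted BMP antagonist, stood at 7.29, 7.27, 7.34, 7.32 and 7.40 against 7.90, 7.72, 7.88, 7.76 and 7.78, a rise of 0.48 ± 0.063 (SE, adjusted p = 0.00178). It was the only raised gene that passed with the muscle covariate (0.0302), and it missed the threshold in male arrays alone (0.0578).

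In the Wnt list 1 of 57 measured genes passed. Wnt11 fell by 0.35 ± 0.070 (log2, SE; adjusted p = 0.0335), a call kept only without knockout replicate 2 (otherwise up to 0.112), and Wnt5a did not pass at 0.13 ± 0.073. No gene passed among 18 measured FGF genes, 12 hedgehog and PTHrP genes or 14 retinoic acid genes, where 10, 9 and 3 members lay below 0. Shh changed by -0.08 ± 0.116, Fgf8 by 0.04 ± 0.068 and Fgf10 by 0.12 ± 0.105 (SE). Across the 39 lists, some of which share genes, 22 had lowered genes and no raised one, and 14 had no call.

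Single members of the axon guidance and neurotrophic lists fell. Whole limbs hold nerves, and whether these changes lie in nerve or in other limb tissue was not tested. Semaphorins, neuropilins and plexins gave 3 calls of 21, all lower (median -0.13). Nrp2, a receptor for class 3 semaphorins, fell from 7.31 ± 0.076 to 6.72 ± 0.179 (SD; adjusted p = 0.00404), and Sema3c from 7.84 ± 0.112 to 7.32 ± 0.145 (0.00899). Sema3a, a repellent that shapes nerve entry into the limb, fell by 0.33 ± 0.063 (SE; 0.0274) and lost its call without any array but wild-type replicate 1 or knockout replicate 3 or 5 (up to 0.0871). Unc5d, a netrin receptor family member, fell from 6.06 ± 0.129 to 5.43 ± 0.163 (0.00340), the only call of 15 in its list, while Ntn1 did not pass (-0.32 ± 0.087, 0.133). Nrp2, Sema3c and Unc5d did not pass in male arrays alone (limma adjusted p = 0.146, 0.214 and 0.0888). Epha8 was the only call of 19 ephrin and Eph genes, at -0.41 ± 0.086 (0.0427), and it was lost without any array but knockout replicate 3 or 5 (up to 0.111). Epha4, the receptor that guides motor axons to the dorsal limb, did not pass at 0.15 ± 0.072.

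Neurotrophic genes gave 2 calls of 13. Gfra1, the GDNF receptor, fell from 7.91 ± 0.114 to 7.46 ± 0.109 (SD; adjusted p = 0.0128), lost only without wild-type replicate 4 (0.0506), and Gdnf did not pass at -0.10 ± 0.073 (SE). Ntrk3, the neurotrophin 3 receptor, fell from 4.35 ± 0.206 to 3.73 ± 0.079 (0.00546). Nerve markers proper were mixed: of 17 neuron and axon genes Dcx fell by 0.50 ± 0.068 (SE; 0.00269) and Gap43 by 0.38 ± 0.075 (0.0297), and Tubb3 did not pass at 0.19 ± 0.127. Neither Ntrk3 nor Dcx passed in male arrays alone (limma adjusted p = 0.156 and 0.135). Gap43 was lost without wild-type replicate 2, 3, 4 or 5 or knockout replicate 1 or 4 (up to 0.0918). The summed intensity of the neuron list ran from 867 to 913 in wild types and from 779 to 821 in knockouts. The mean log2 level of the list overlapped, at 5.09 to 5.15 and 4.97 to 5.10, and its median change was -0.03.

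Apod, which encodes apolipoprotein D, a lipid carrier of connective tissue, stood at 6.74, 6.94, 7.0, 7.0 and 7.01 in the wild types and at 5.32, 5.39, 5.55, 5.0 and 5.20 in the knockouts. It fell 3.13-fold (-1.65 ± 0.096 SE, adjusted p = 7.77e-07). Of the 5 lipid transporter genes listed with it, Abca8b fell by 0.57 ± 0.117 (adjusted p = 0.0350), a call kept only without wild-type replicate 1 or knockout replicate 1 or 3 (otherwise up to 0.112). All 6 genes of that list lay below 0, with a median of -0.68. Its neighbours Abca8a and Abca9 stood at -0.79 ± 0.219 and -0.98 ± 0.228 without passing (0.145 and 0.0740). Slc40a1, which encodes ferroportin, the cell's iron exporter, fell 2.11-fold from 7.82 ± 0.223 to 6.75 ± 0.299 (SD; adjusted p = 0.00164), the only call among 12 iron genes.

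Cbln2, which encodes a cerebellin, a secreted organiser of synapses, stood at 7.23, 7.09, 7.24, 6.98 and 6.95 against 5.63, 5.40, 5.81, 5.52 and 5.53. It fell 2.86-fold (-1.52 ± 0.088 SE, adjusted p = 7.77e-07), and Cbln4 of the same family fell 2.19-fold (-1.13 ± 0.125, 0.000458). Calb1, which encodes the calcium-binding protein calbindin, stood at 5.70, 6.10, 6.32, 6.28 and 6.30 against 4.50, 4.57, 5.27, 4.50 and 4.55. Knockout replicate 3 was the highest of its group but still below every wild type, and Calb1 fell 2.75-fold (-1.46 ± 0.154, 0.000322). Slitrk1, a neuronal membrane protein, fell 2.20-fold (-1.14 ± 0.085, 7.47e-06), Sstr1, a somatostatin receptor, 2.09-fold (-1.06 ± 0.121, 0.000585), and Steap4, a metalloreductase, 2.10-fold (-1.07 ± 0.163, 0.00606). Steap4 did not pass in male arrays alone (limma adjusted p = 0.167).

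Mdga2 and Atp1b4 were less secure. Mdga2, a synaptic adhesion protein, fell 2.22-fold (-1.15 ± 0.227 SE, adjusted p = 0.0311) and kept its call only without wild-type replicate 1 or knockout replicate 1 or 3 (otherwise up to 0.0994). Atp1b4, a muscle protein related to ion pump subunits, fell 1.98-fold (-0.98 ± 0.185, 0.0242) and lost its call without wild-type replicate 2, 3, 4 or 5 or knockout replicate 4 or 5 (up to 0.0805). The agouti gene, a, whose product switches melanocytes to yellow pigment, fell from 6.70 ± 0.277 to 5.83 ± 0.279 (SD; adjusted p = 0.0112), and Ednrb, an endothelin receptor of melanoblasts and mesenchyme, by 0.59 ± 0.103 (SE; 0.0173). Agouti did not pass in male arrays alone (limma adjusted p = 0.0709). Ednrb lost its call without wild-type replicate 3, 4 or 5 or knockout replicate 4 (up to 0.0607). The Schwann cell regulator Sox10 did not pass at -0.09 ± 0.070.

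Raised genes were few and moved less. Nrn1, which encodes neuritin, stood at 5.71, 5.73, 5.75, 5.46 and 5.52 in the wild types and at 6.54, 6.26, 6.98, 6.29 and 6.49 in the knockouts. The groups did not overlap, and Nrn1 rose 1.84-fold (0.88 ± 0.121 SE, adjusted p = 0.00286). Hpse2, which encodes heparanase 2, a protein that binds heparan sulfate, stood at 6.61, 6.29, 6.34, 6.06 and 6.31 against 7.16, 7.02, 7.21, 7.42 and 6.75, a rise of 1.73-fold (0.79 ± 0.120, 0.00600). Rfx4, a transcription factor, rose from 4.15 ± 0.082 to 4.75 ± 0.171 (SD; 0.00294). These 3 and Nbl1 kept their calls without any single array. In male arrays alone Nrn1 passed (limma adjusted p = 0.00509), and Hpse2 and Rfx4 did not (0.179 and 0.107).

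The other raised genes with established names each depended on single arrays, as Pax9 did. Eya1, a transcriptional cofactor of muscle and connective tissue, rose 1.53-fold (0.61 ± 0.123 SE, adjusted p = 0.0324) and was the only call of 9 genes of the Eya, Dach and sine oculis families. Hmgb1, a chromatin protein, rose by 0.57 ± 0.121 (0.0453), and Slc39a12, a zinc transporter, by 0.49 ± 0.094 (0.0268). Shc3, Lnpk, B3gnt5, Olfr703, Zfp101 and Nsmce2 rose by 0.33 to 0.47. Both groups lay well under the array medians for Olfr703, at 3.03 in wild types and 3.42 in knockouts, and for Slc39a12, at 3.37 and 3.86. Slc39a12 lost its call without wild-type replicate 3, 4 or 5 or knockout replicate 1 (up to 0.0877). For the other 8 genes, leaving out knockout replicate 1 or 2 or wild-type replicate 2 or 3 ended every call (adjusted p up to 0.142, for B3gnt5), and other arrays ended some.

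Markers of other cell types that a whole limb holds also differed, and their part in the results above was not tested beyond the muscle covariate. Endothelial genes gave 3 lowered calls of 28 (median -0.13): Prox1, the lymphatic regulator, at -0.82 ± 0.152 (SE; adjusted p = 0.0225), Tek at -0.45 ± 0.085 (0.0260) and Aplnr at -0.45 ± 0.083 (0.0227), while Pecam1 did not pass at -0.09 ± 0.086. All 3 were lost without knockout replicate 2, 4 or 5 or wild-type replicate 3 or 4, Aplnr and Tek also without wild-type replicate 2, and Prox1 and Tek without wild-type replicate 5 (up to 0.0802). Macrophage and leukocyte genes gave 1 call of 25, Mrc1 (-0.54 ± 0.116, 0.0465), with a median of -0.24 and 23 members below 0. Erythroid genes gave 1 of 11, the haem synthesis gene Alas2 (-0.78 ± 0.169, 0.0491). Mrc1 and Alas2 were lost without wild-type replicate 2, 3, 4 or 5 or knockout replicate 2, 4 or 5, and Mrc1 also without knockout replicate 1 (up to 0.148).

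Epidermal genes gave no call of 25 (median -0.084), and Krt14 changed by -0.09 ± 0.159. Pericyte and smooth muscle genes gave none of 12 (median -0.088). Summed intensity in wild types and knockouts was 2150 to 2550 and 1870 to 2390 for endothelium, 977 to 1250 and 877 to 1140 for macrophages, 3820 to 4480 and 2070 to 4090 for erythroid genes, 956 to 1120 and 855 to 1010 for Schwann cell and melanoblast genes, and 3520 to 5100 and 2940 to 5300 for epidermis. Those ranges overlapped. The sums of the neuron list, given above, did not, but its mean log2 levels did. Cell cycle genes gave no call of 22, with 19 above 0 and a median of 0.13, and Mki67 changed by -0.09 ± 0.109.

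Of the 165 genes called in the forelimb, 34 also passed in the hindlimb, where 46 of all genes passed (0.231%). The sign was the same in the hindlimb for 156 of the 165, with such small changes as that of Cntn1 (-0.07) among them, and 153 had the smaller change in the hindlimb. The 165 were selected on the forelimb values, so a smaller second value is not a test of a difference. Log2 changes in hindlimb and forelimb were -2.87 and -3.09 for Kera, -1.22 and -1.42 for Emx2, -1.08 and -1.29 for Lum and -1.11 and -1.08 for Slc40a1. The agouti gene, a, stood at -1.22 in the hindlimb and -0.88 in the forelimb, a difference of -0.34 ± 0.189 (SE) that did not pass (limma adjusted p = 1).

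The difference between the limb types was itself called for 4 genes of 19936 (0.0201%), from a fit to all 20 arrays. Alx1 changed by -1.27 in the forelimb and -0.44 in the hindlimb, a difference of 0.83 ± 0.131 (SE, adjusted p = 0.0196). Grm7, a glutamate receptor, changed by -0.91 and -0.10 (difference 0.81 ± 0.117, 0.0138), Cntn1, which encodes contactin 1, by -0.90 and -0.07 (0.82 ± 0.142, 0.0435), and Pax1 by -0.49 and 0.18 (0.66 ± 0.106, 0.0196). All 4 were already lower in the wild-type hindlimb than in the wild-type forelimb. Alx1 averaged 4.83 there against 6.25, Grm7 3.8 against 4.59, Cntn1 4.06 against 4.76 and Pax1 5.37 against 5.7. The part of this lower start in the differences was not tested. Between 1 and 10 genes were called when a forelimb array was left out: 10 without wild-type replicate 1, 1 without wild-type replicate 3, and 2 without wild-type replicate 4 or 5 or knockout replicate 2.

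Thbs4, Grem1 and Galnt13 came next (adjusted p = 0.0807 each). Thbs4 changed by -1.55 in the forelimb and -0.30 in the hindlimb, and in the wild-type hindlimb it averaged 5.92, close to the 5.97 of the knockout forelimb and well under the 7.51 of the wild-type forelimb. Several other genes were low in the wild-type hindlimb to begin with: Ibsp averaged 3.85 there against 6.05 in the wild-type forelimb, Panx3 4.31 against 5.49, and Col12a1 6.74 against 7.68. Their hindlimb changes were -0.21, 0.02 and -0.31, and the differences from the forelimb did not pass (adjusted p = 0.340, 1 and 1).

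**Figure D5:**
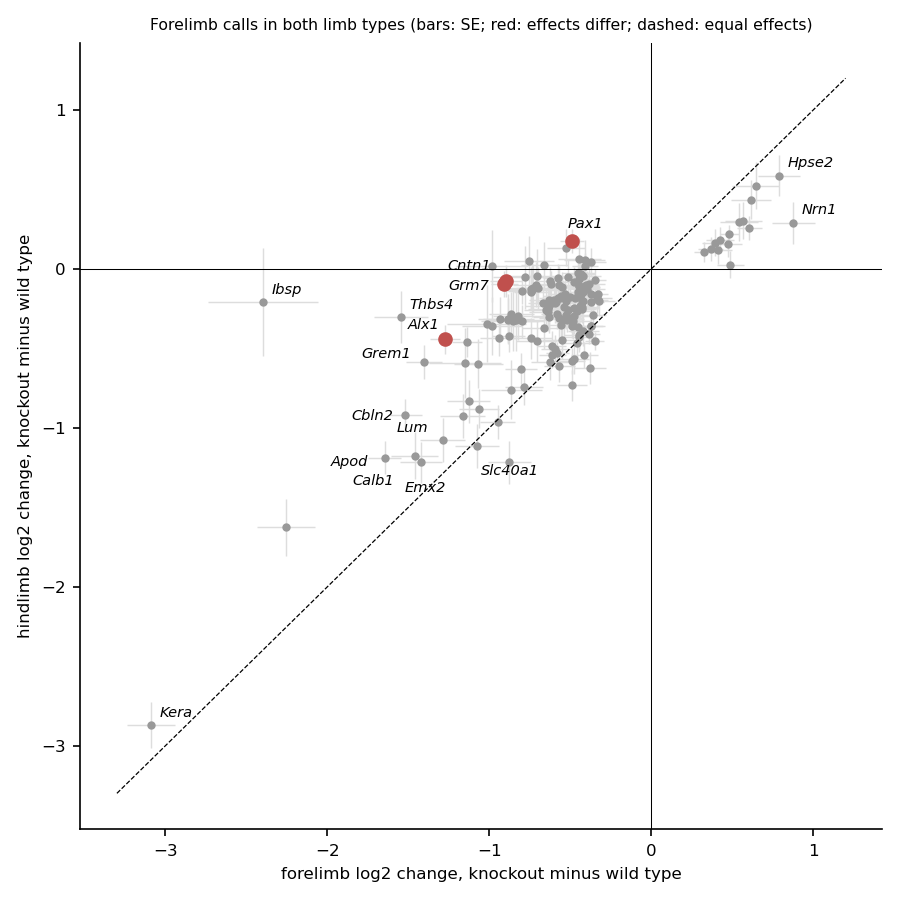
Log2 change in knockout hindlimbs (vertical axis) against that in knockout forelimbs (horizontal axis) for the 165 genes called in the forelimb, with standard errors from the fit to 20 arrays, the 4 genes whose effects differed in red and a dashed line where both would be equal. Kera, Emx2 and Slc40a1 lie near the dashed line, Ibsp, Thbs4, Grm7 and Cntn1 lie near 0 on the hindlimb axis, and Pax1 lies above 0 there.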

How the data were processed

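Whole forelimbs were profiled on Affymetrix whole-transcript arrays, 1 array per limb. The deposited values are intensities on a linear scale, made by the authors with RMA per the submitters' processing notes. Software version, array annotation and genome build were not given in the sources used here. Here log2 was taken with no pseudocount. Probe sets with 1 gene symbol were kept (21789 of 35512), and the one with the highest mean over the 10 forelimb arrays stood for a gene, which gave 19936 genes. Names came from the platform annotation and RefSeq genes (GRCm38.p6).

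The main test was limma 3.58.1 under R 4.3.3 on 2 group means, 10 arrays, with Benjamini-Hochberg adjustment over all genes and a threshold of 0.05. The difference between limb types came from a fit of 4 group means to 20 arrays. Errors are limma standard errors (SE) or sample SDs. Depth is not a property of arrays, and their number limits the precision. Adjusted p-values that follow a first one in brackets are from the same fit.

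Named genes were Lmx1b, the 20 lowered and up to 20 raised called genes of largest log2 change, called members and marked key members of 39 lists, and the 5 smallest adjusted p for the limb-type difference. Provisional names were counted, not named, except where said. The lists (787 entries, 37 of them without a probe set here), members and rules were chosen with earlier results of these data known, and lists were given counts and medians, with no test. Alternatives were other fits, covariates, scalings, filters and leaving out each array. The main fit was tested on simulated data: of 67, 67 and 66 genes changed by 0.3, 0.6 and 1.2 (log2) in 19936 genes, it recovered 38.8%, 94% and 100%, and 5.49% of its calls were unchanged genes. The simulated noise was normal and independent between genes and arrays. It held no sex imbalance, shared shift of muscle genes or outlying array, so these shares do not give the error rate in the real arrays. Tables were made in Python 3.11.15 with pandas 2.3.3.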

Additional observations from a re-analysis of the deposited data

Results flagged for a closer look

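Values that stood apart within a group of 5 were looked for in the 116 named genes, 232 groups of values in all, where chance marks about 1 group in 20, and 17 were found. In 10 of the called genes 1 array stood apart. Wild-type replicate 1 was the lowest for Ibsp at 3.94 (others 6.40 to 6.96), for Apod at 6.74 (6.94 to 7.01) and for Atp1b4 at 4.61 (5.55 to 5.86). Wild-type replicate 2 was the highest for Sp7 at 5.59 (5.35 to 5.40) and the lowest for Unc5d at 5.83 (6.10 to 6.15). Among knockouts, replicate 3 was the highest for Calb1 at 5.27 (4.50 to 4.57), replicate 1 for Myf6 at 4.40 (4.28 to 4.30), replicate 4 for Nsmce2 at 8.77 (8.59 to 8.62), while replicate 4 was the lowest for Tnnt2 at 7.71 (8.20 to 8.28) and replicate 5 for Shc3 at 5.07 (5.44 to 5.59).

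In genes that were not called, knockout replicate 4 was the highest for Lhx9 at 8.16 (7.49 to 7.63), Msx1 at 8.50 (7.99 to 8.07) and Aldh1a2 at 9.57 (8.34 to 8.65). Wild-type replicate 5 was the lowest for Hoxa13 at 6.25 (6.74 to 6.88) and Tbx4 at 5.58 (6.02 to 6.19). Knockout replicate 2 was the lowest for Pax3 at 4.27 (4.42 to 4.48) and knockout replicate 5 for Ntn1 at 5.79 (6.11 to 6.23).

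The genotype effect differed between limb types, hindlimb minus forelimb by the test of the difference, for Grm7 by 0.81, Alx1 by 0.83, Pax1 by 0.66 and Cntn1 by 0.82 on the log2 scale (limma, adjusted p = 0.0138, 0.0196, 0.0196 and 0.0435).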

How the results depend on the processing

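The main fit called 165 genes, 150 lower and 15 higher, and 4 for the difference between limb types. Counts of all, lower and higher calls were 254, 206 and 48 with all 20 arrays in 1 fit, 267, 217 and 50 with array weights, 228, 189 and 39 with a robust prior that follows the level, and 176, 150 and 26 over genes with a mean level of at least 5. They were 28, 26 and 2 with a covariate for the Y-linked level, 35, 33 and 2 in male arrays, 14, 13 and 1 with one for the muscle list, 53, 48 and 5 over all probe sets, 52, 48 and 4 at an adjusted p of 0.01, and 74, 69 and 5 with at least a 1.5-fold change. Leaving out 1 array gave 62 to 230 calls, 58 to 210 lower and 4 to 27 higher, and 1 to 10 for the limb-type difference, which had 2 calls over genes with a mean level of at least 5. For these counts the cause was not tested, except that fewer genes, fewer samples or a stricter rule are part of some settings. Added after seeing the data, the fit of 20 arrays with the Y-linked level gave 140, 125 and 15.

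Replicate numbers did not pair the samples: same-numbered deviations correlated at 0.0372, -0.0493, 0.256, 0.0509 and 0.211, and not every array correlated best with its own number. With a replicate block 96 genes passed, 83 lower and 13 higher, and 89 of the 165 were among them. Averaging arrays that share a description number also gave 96, 86 and 10, although in the knockouts both such pairs differ in sex. Over named genes and alternatives, 2375 results kept their side of the threshold, 565 lost a call, 14 gained one and none reversed. No direction was read where neither fit made a call. The 2375 include 77 from an exact permutation test at unadjusted p, which any gene without overlap passes. They also include genes not called in the main fit, which had no call to lose, so the total is no measure of how stable the calls are. Of 19 lists with a median of at least 0.1 in size, 0 changed sign under median centring or quantile scaling. Signal over background was not analysed here.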

Other observations

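Members of several neuronal adhesion and receptor families fell in the knockout forelimbs, each beside relatives that did not pass. These families were looked at after the calls were seen, so their counts carry no test. Over all genes tested, 0.752% were called lower and 0.0752% higher. Median log2 changes were -0.32 for contactins, -0.15 for type II cadherins and -0.07 for both receptor groups below. Among 6 contactins, Cntn1 fell from 4.76 ± 0.166 to 3.86 ± 0.181 (SD, n = 5 each; limma adjusted p = 0.000458) and Cntn5 by 0.43 ± 0.088 (log2, SE; 0.0364). Among 13 type II cadherins, cell adhesion proteins, Cdh8 fell by 0.61 ± 0.079 (0.00178), Cdh10 by 0.71 ± 0.095 (0.00221) and Cdh9 by 0.59 ± 0.102 (0.0167), while Cdh11, the mesenchymal cadherin, did not pass at 0.10 ± 0.065 with a wild-type level of 10.4. Cdh9 and Cdh10 are next to each other in the genome, and 9 such adjacent pairs of called genes were found in all. Of 13 somatostatin, opioid and neuropeptide Y receptors, Sstr1, Oprk1 (-0.78 ± 0.121, 0.00631) and Npy2r (-0.58 ± 0.083, 0.00404) fell, and of 7 metabotropic glutamate receptors only Grm7 did (-0.91 ± 0.087, 0.000136). Neither Oprk1 nor Npy2r passed in male arrays alone (limma adjusted p = 0.182 and 0.15). Kcnab1, a potassium channel subunit, fell by 0.95 ± 0.098 (0.000298), and by 0.96 in the hindlimb. Cntn5 kept its call in 1 of the 10 fits that leave out an array (highest adjusted p 0.112, limma), and Cdh9 lost it without wild-type replicate 3 (0.0607). Counting also the cerebellins and the SLITRK, MDGA and IgLON adhesion proteins, all but Cbln2, Cbln4 and Negr1 of the called genes in these families had wild-type levels under 6. None of these families had a member called higher, although some members, such as Cbln1 at 0.26 (log2), stood above 0.

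Genes of the myomesin, myotilin and muscle ankyrin repeat families, which encode M-band, Z-disc and stretch-response proteins, were in no list and were grouped after their calls were seen, so no count is drawn from them. Myom2 fell from 6.02 ± 0.204 to 5.28 ± 0.28 (SD; adjusted p = 0.0173), Myot by 0.73 ± 0.147 (SE; 0.0338), Ankrd1 by 0.70 ± 0.118 (0.0132), Myom1 by 0.63 ± 0.134 (0.0453) and Ankrd2 by 0.63 ± 0.133 (0.0429). Their hindlimb changes were -0.14, -0.12, -0.12, -0.23 and -0.20, and none passed there. With the mean of the muscle list as a covariate the forelimb changes were -0.30, -0.24, -0.28, -0.16 and -0.22 in the same order, and none passed. The forelimb calls depended on single arrays. Of the 10 fits that leave out 1 array, Ankrd1 kept its call in 9 (lost without wild-type replicate 3, limma adjusted p = 0.0505), Myom2 in 6 (lost without knockout replicate 4 or wild-type replicates 3, 4 or 5; highest 0.0607), and Myot and Ankrd2 in 3 each (highest 0.112 and 0.137). Myom1 kept it only without knockout replicate 3 or wild-type replicate 1 (highest 0.131).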
